A study of Saccharomyces cerevisiae with 12 samples.

Results

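The 51 nuclear genes described here encode most subunits of the mitochondrial respiratory chain and ATP synthase, the enzymes of the citric acid cycle inside mitochondria, and the HAP transcription factor, in the budding yeast Saccharomyces cerevisiae. They were chosen by name and function, not by how they moved. There was 1 NADH dehydrogenase, 4 subunits of complex II, 9 of complex III, 8 of complex IV, 12 of ATP synthase, 13 citric acid cycle genes and 4 HAP subunits. The array covered 5449 yeast genes, and each of the 51 had exactly 1 probe set, a group of short probes read as a single value. The 8 genes of these complexes and their synthesis that lie on mitochondrial DNA were not analysed here.

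Complexes II, III and IV pass electrons from succinate and NADH to oxygen, and ATP synthase uses the resulting proton gradient to make ATP. Budding yeast has no multisubunit complex I and oxidises NADH in the mitochondrial matrix with the single enzyme Ndi1. While glucose is plentiful, yeast ferments and keeps many of these genes low, and the HAP complex, whose limiting activating subunit is Hap4, raises them as glucose runs out.

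Total RNA from 12 cultures was hybridised, 1 culture to an array. The study asked which genes follow the cell surface adhesin gene FLO11 and its transcriptional activators MSS11 and FLO8. In the first set, 3 cultures of strain Σ1278b carried FLO11 on a multicopy plasmid under the strong constitutive PGK1 promoter and 3 wild-type cultures carried an empty vector. In the second set there was 1 culture each of S288c with MSS11 on a multicopy plasmid, S288c wild type, Σ1278b with MSS11 on that kind of plasmid, Σ1278b with multicopy FLO8, Σ1278b with MSS11 deleted (mss11Δ), and Σ1278b wild type. The deletion strain and both wild types of this set carried an empty vector. The plasmid list of the study gives the FLO11 plasmid a LEU2 marker, whereas the MSS11 plasmid and its control vector carry URA3. The Σ1278b strains were labelled as mating type α (MATα), whereas the strain list of the study gives MATa for this parent, and all were labelled with the alleles trp1Δ::hisG and ura3-52, with his3Δ::hisG and leu2Δ::hisG beside them. In mss11Δ the LEU2 gene replaced MSS11. The S288c strain was BY4742 (MATα, with lys2Δ0, leu2Δ0, ura3Δ0 and his3Δ1), which carries the nonsense allele flo8-1. All cultures grew in 5 ml synthetic medium with 2% glucose at 30 °C. The labels give early stationary phase and the methods give exponential growth, so the stage of the cultures is uncertain. An array of a whole culture cannot tell a change in every cell from a change in a share of the cells.

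Values are log2 of the intensity, so a difference of 1 is 2-fold. The 95th percentile of the fission yeast probe sets on the same arrays, taken as background, was 4.77 to 4.90, and all 51 genes were above it on all 12 arrays. Replicate arrays of the first set correlated at 0.997 to 0.998 across yeast probe sets, and the median SD of the 51 genes was 0.05 in both the FLO11 and the wild-type group. FLO11, MSS11 and FLO8 were high where plasmids carried them, and LYS2, deleted in BY4742, was 4.21 and 3.70 in S288c against 12.54 to 13.47 in the Σ1278b arrays of the second set. The 4 markers of mating type α were high in both strains (12.80 to 14.56 in S288c, 11.59 to 14.71 in Σ1278b). In Σ1278b this goes against the strain list. Of 5 markers of mating type a, MFA1, MFA2, STE2 and BAR1 were brighter on both S288c arrays than on all 10 Σ1278b arrays, which goes against the MATα label of BY4742. STE6 read 7.69 in S288c with MSS11 and 8.54 in S288c wild type, against 7.32 to 8.12 in Σ1278b. STE2, the α-factor receptor, read 10.71 in S288c with MSS11 and 12.14 in S288c wild type, against 7.40 to 8.55 in Σ1278b. All 5 were dimmer in S288c with MSS11 than in S288c wild type, by 0.85 to 1.61 on the log2 scale. Whether either S288c culture held cells of both mating types cannot be told from these arrays. The part of this signal in the strain differences and in the MSS11 differences of S288c was not tested. LEU2, listed as deleted in both strains, read 7.40 and 7.06 in S288c but 12.93 to 13.04 in Σ1278b with MSS11, with FLO8 and wild type of the second set. The methods give a plasmid with the URA3 marker for MSS11 and its controls, so this goes against the leu2Δ::hisG label, though where the probes lie relative to the deletion was not checked.

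S288c was compared with Σ1278b in 2 pairs of arrays, both with extra MSS11 and both wild type. The limma fit had a strain term and an MSS11 term. The pairs were matched on the plasmid given by the methods, but LEU2 signal and the lys2 and trp1 alleles differed between the strains. The part of these in the strain differences was not tested. S288c had less transcript for the electron transport complexes and slightly more for part of the citric acid cycle. Of the 51 genes, 14 were lower in S288c and 2 were higher at a Benjamini-Hochberg adjusted p under 0.05, against 7.29% of all 5498 yeast probe sets lower and 6.29% higher. The called genes were unevenly spread over the complexes. All 8 complex IV subunits had a negative difference and 7 passed the test, with a median of -0.84. In complex III 4 of 9 passed, with a median of -0.55, and in complex II 1 of 4, with a median of -0.40. None of the 12 ATP synthase subunits passed (median -0.19, with 2 lower before adjustment at p under 0.05, against 22.4% of all probe sets), while the median over all probe sets was -0.06.

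**Figure D1:**
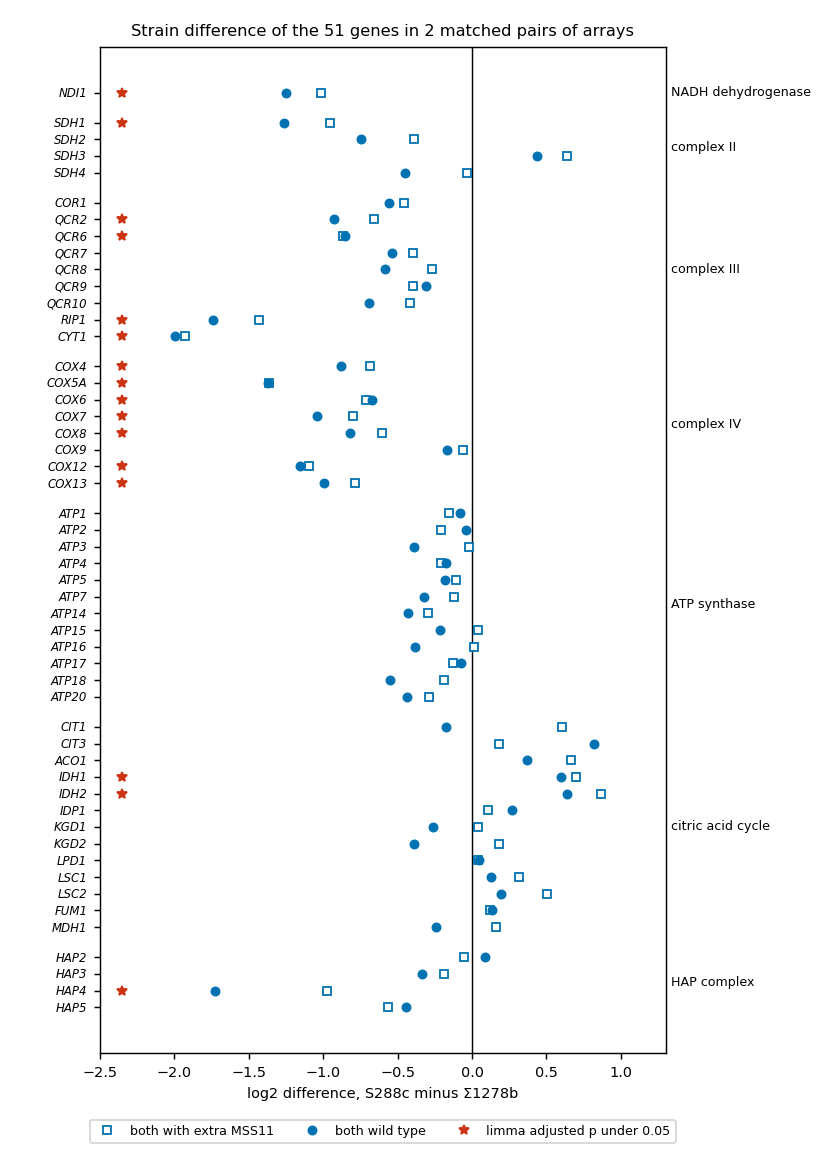
Log2 difference S288c minus Σ1278b (x axis) of each of the 51 genes, grouped by complex, for the pair with extra MSS11 (open squares) and the wild-type pair (filled circles), with red stars for genes at a limma adjusted p under 0.05. All complex III and complex IV genes lie left of 0 in both pairs, ATP synthase genes lie nearer to 0, and IDH1 and IDH2 lie to the right.

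Electrons enter the chain from NADH through Ndi1 and from succinate through complex II. NDI1 read 10.15 and 9.93 in S288c with MSS11 and S288c wild type, against 11.16 and 11.18 in Σ1278b with MSS11 and Σ1278b wild type. Both S288c arrays lay below all 10 Σ1278b arrays, the lowest of which was 11.09, and the difference was -1.13 ± 0.12 (SE), or 2.19-fold (limma adjusted p = 0.0169). SDH1, the flavoprotein that oxidises succinate, read 10.69 and 10.34 in S288c against 11.64 and 11.60 in Σ1278b, a difference of -1.11 ± 0.13 (limma adjusted p = 0.0214). SDH2, the iron-sulphur subunit, differed by -0.57 (limma adjusted p = 0.0725) and SDH4, a membrane anchor, by -0.24. The other anchor, SDH3, had the opposite sign. It read 13.02 and 12.86 in S288c against 12.38 and 12.43 in Σ1278b, above all 10 Σ1278b arrays, but missed the threshold (0.54 ± 0.12, limma adjusted p = 0.0606).

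Complex III takes electrons from ubiquinol and hands them to cytochrome c, and its 2 largest strain differences were in subunits that carry redox centres. CYT1, cytochrome c1, read 11.20 and 10.99 in S288c against 13.12 and 12.98 in the matched Σ1278b arrays. The 10 Σ1278b arrays spanned 12.68 to 13.17, so the strains did not overlap, and the difference of -1.96 ± 0.11 was 3.89-fold (limma adjusted p = 0.00454). RIP1, the Rieske iron-sulphur protein, read 11.83 and 11.54 in S288c against 13.27 and 13.28 in Σ1278b, a difference of -1.58 ± 0.13 (limma adjusted p = 0.00927). The core protein gene QCR2 (-0.79, limma adjusted p = 0.0349) and the small acidic subunit QCR6 (-0.86, limma adjusted p = 0.0228) also fell. The other core protein COR1 (-0.51) and the small subunits QCR7, QCR8, QCR9 and QCR10 (-0.55 to -0.35) did not pass the threshold. In both S288c arrays all 9 genes of the complex were below every Σ1278b array, against 28.2% of all probe sets.

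Complex IV, cytochrome c oxidase, reduces oxygen. Its subunit 5 comes in 2 forms, COX5A, used in air, and COX5B, used when oxygen is low. COX5A read 12.62 and 12.55 in S288c against 13.98 and 13.91 in Σ1278b, a 2.58-fold lower level (-1.36 ± 0.10, limma adjusted p = 0.00782). COX12, which encodes subunit 6b, read 12.73 and 12.53 in S288c against 13.83 and 13.68 in Σ1278b, and differed by -1.13 ± 0.11 (limma adjusted p = 0.0135). COX7 (-0.92), COX13 (-0.89), COX4 (-0.78), COX8 (-0.71) and COX6 (-0.69), all small nuclear-encoded subunits, also fell, with limma adjusted p of 0.0268 to 0.0377. For these 7 genes both S288c arrays lay below all 10 Σ1278b arrays, as they did for 28.2% of all probe sets. COX9, which encodes subunit 7a, did not share this. It read 13.16 and 13.08 in S288c and 13.22 and 13.25 in Σ1278b, inside the Σ1278b range, with a difference of -0.11 ± 0.11 (limma adjusted p = 0.498). The call for COX8 was lost when arrays were centred on their medians (-0.64, limma adjusted p = 0.0540).

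ATP synthase stood nearer to the rest of the genome. The 12 differences lay between -0.37 and -0.09. In 6 of the 12 genes both S288c arrays were below all Σ1278b arrays, against 28.2% of all probe sets. ATP1, the α subunit of the catalytic head, read 14.17 and 14.15 in S288c against 14.32 and 14.23 in the matched Σ1278b arrays, a difference of -0.12 ± 0.11 (limma adjusted p = 0.477). ATP2, the β subunit, differed by -0.13 and ATP3, the γ subunit, by -0.21. The largest differences were in the small membrane-sector subunits ATP18 (-0.37) and ATP20 (-0.36) and in ATP14 (-0.36), with limma adjusted p of 0.101 to 0.146. In the 12-array fit, which takes the spread from the replicated first set, 7 of the 12 passed, against 34% of all probe sets lower and 21.3% higher.

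The citric acid cycle went the other way in part. IDH1 and IDH2 encode the 2 subunits of NAD-dependent isocitrate dehydrogenase. IDH2 read 13.24 and 13.03 in S288c against 12.37 and 12.39 in Σ1278b, 1.69-fold higher (0.75 ± 0.12, limma adjusted p = 0.0351). IDH1 read 12.97 and 12.88 in S288c against 12.27 and 12.28 in Σ1278b, 1.57-fold higher (0.65 ± 0.11, limma adjusted p = 0.0383). Both S288c arrays exceeded all 10 Σ1278b arrays for these genes. However, the second Σ1278b wild-type array itself read 12.28 for IDH1 and 12.39 for IDH2, against 11.57 to 11.68 and 11.64 to 11.72 in the 3 wild-type arrays of the first set, so arrays of 1 strain differed between sets by about as much as the strains did.

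Of the other 11 cycle genes none passed. ACO1, mitochondrial aconitase, read 13.86 and 13.72 in S288c against 13.20 and 13.35 in Σ1278b (0.52 ± 0.13, limma adjusted p = 0.0745). LSC2, a subunit of succinyl-CoA ligase, differed by 0.35, and CIT3, a minor mitochondrial citrate synthase with the dimmest probe set of the group, by 0.50. KGD1 and KGD2, 2 components of 2-oxoglutarate dehydrogenase, differed by -0.11 and -0.10, MDH1, mitochondrial malate dehydrogenase, by -0.04, and LPD1, FUM1, IDP1, LSC1 and CIT1 by 0.04 to 0.22. Of the 13 cycle genes 0 were below all Σ1278b arrays in both S288c arrays and 6 were above all of them. The shares of all probe sets were 28.2% and 15.4%, so the 6 of 13 above was over that background. Over the 51 genes the counts were 28 below and 7 above. At 28 of 51 the total below was over the background, and the total of 7 above was not, although 6 of those 7 were cycle genes.

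**Figure D2:**
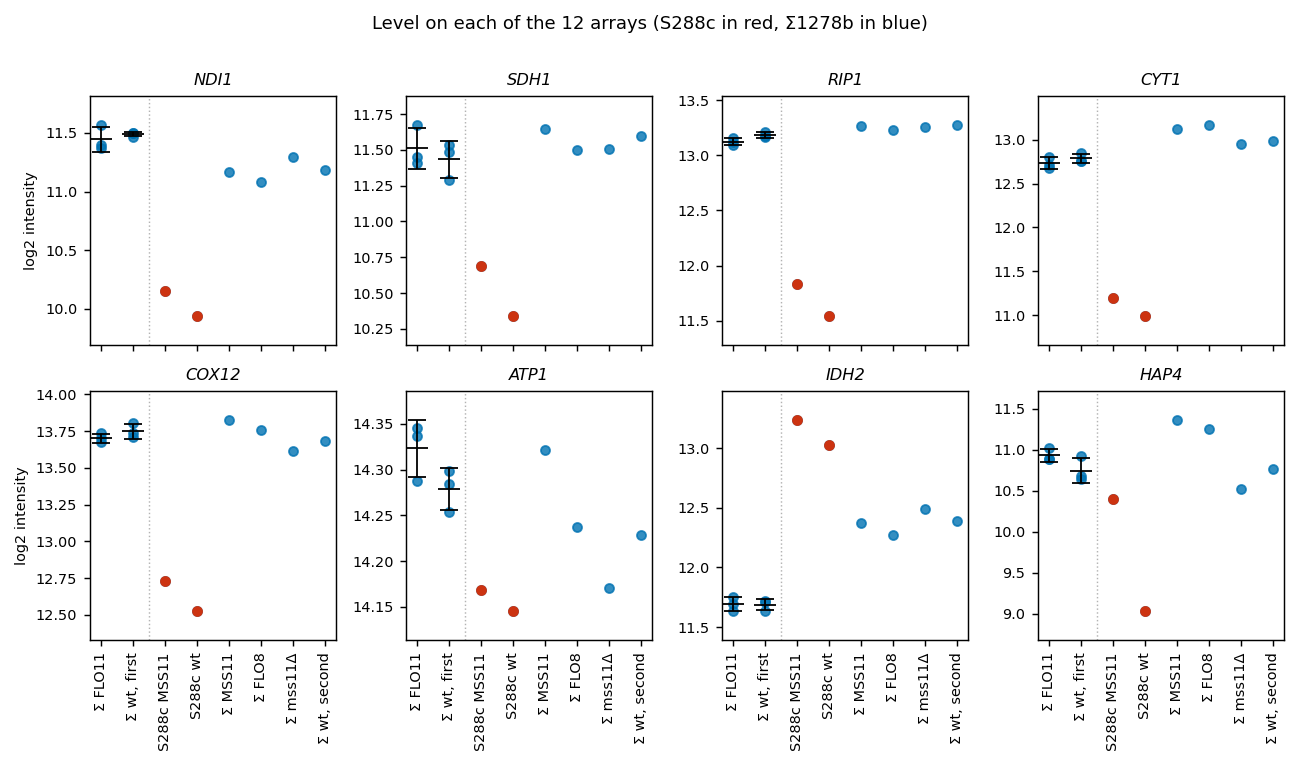
Log2 intensity on each of the 12 arrays for 8 genes (y axes differ and do not start at 0), by group, with S288c in red and Σ1278b in blue. Bars in the 2 groups of 3 give the mean ± SD. The S288c points of NDI1, SDH1, RIP1, CYT1 and COX12 lie well below the Σ1278b points, ATP1 spans about 0.2 in all, and IDH2 also differs between the 2 sets of Σ1278b arrays.

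Of the 4 HAP subunits only HAP4 passed the test. It read 10.39 in S288c with MSS11 and 9.03 in S288c wild type, against 11.37 in Σ1278b with MSS11 and 10.76 in Σ1278b wild type. The lowest of the 10 Σ1278b arrays was 10.52, so both S288c arrays were below all of them, and the difference was -1.35 ± 0.22, or 2.55-fold (limma adjusted p = 0.0355). It missed the threshold when the S288c arrays were set against the 4 Σ1278b arrays of the second set (limma adjusted p = 0.0524). The DNA-binding subunits HAP2 (0.02), HAP3 (-0.26) and HAP5 (-0.50, limma adjusted p = 0.0606) did not pass. Both S288c arrays lay below all 10 Σ1278b arrays for HAP3 and HAP5 too, as they did for 28.2% of all probe sets. The 12-array fit called 3 of the 4 lower, against 34% of all probe sets.

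Pair by pair, 0 of the 51 were at least 2-fold higher and 5 at least 2-fold lower in S288c with extra MSS11 than in Σ1278b with extra MSS11 (4% and 2.46% of all probe sets). Between the wild types 0 were higher and 8 lower (5.33% and 3.27%). NDI1, RIP1, CYT1, COX5A and COX12 were past 2-fold in both pairs, and SDH1, COX7 and HAP4 in the wild types only. With 1 culture for each strain and plasmid, these pairs have no replicates of their own, and the p-values of the fit rest on how alike the pairs were. Of the 16 called genes, 14 kept their call in every alternative setting that left no array out, COX8 and HAP4 losing theirs in 1 setting each. Taking the mean of probe sets per gene could not test these genes, each with 1 probe set. The 12-array fit called 34% of all probe sets lower, against 7.29% in the main fit, so a call was easier to keep there. Leaving out 1 of the 4 arrays left a single pair, whichever of its arrays was dropped, so those settings were not counted here. In both pairs the 16 differences had the sign of the fit.

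Among the genes that work around the complexes, CYC1, COX5B, NDE1 and CYC7 had larger strain differences than any of the 51. CYC1, the main cytochrome c, read 10.53 and 10.41 in S288c against 14.11 and 14.13 in Σ1278b, 12.6-fold lower (-3.65 ± 0.11, limma adjusted p = 0.00132). CYC7, the cytochrome c form used at low oxygen, read 8.97 and 7.90 in S288c against 10.91 and 9.96 in Σ1278b (-2.00 ± 0.11, limma adjusted p = 0.00454). COX5B was the reverse of COX5A. It read 12.12 and 11.80 in S288c against 8.98 and 8.91 in Σ1278b, 8.11-fold higher (3.02 ± 0.12, limma adjusted p = 0.00263). Of the 7 genes for cytochrome c, hypoxic forms and carriers, 1 rose and 2 fell, against 6.29% and 7.29% of all probe sets. Of 5 other enzymes that feed electrons into the chain, 2 fell, NDE1, the external NADH dehydrogenase (-2.33, limma adjusted p = 0.00339), and CYB2, L-lactate cytochrome c oxidoreductase (-1.70, limma adjusted p = 0.00605).

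**Figure D3:**
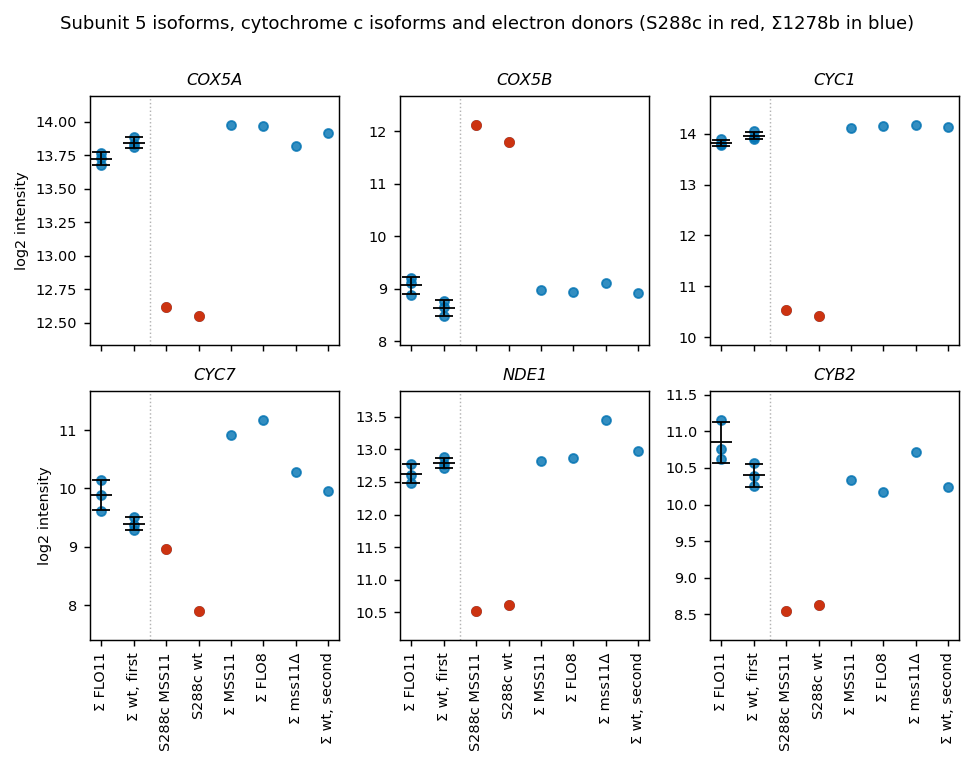
Log2 intensity on each of the 12 arrays (y axes differ and do not start at 0) for the 2 forms of cytochrome oxidase subunit 5, the 2 forms of cytochrome c, NDE1 and CYB2, drawn as in the plot of member levels, with mean ± SD bars in the groups of 3. In S288c (red) COX5A is low and COX5B is high, and the other 4 genes are low.

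Of 37 assembly and translation factors of the complexes, 6 were lower and 1 was higher in S288c, against 7.29% and 6.29% of all probe sets. PET309, which helps translate the COX1 messenger, fell by 0.86 (limma adjusted p = 0.0262) and COX23, a complex IV assembly protein of the intermembrane space, fell by 0.94 (limma adjusted p = 0.0454). SDH6, a complex II assembly factor, was 2.36-fold higher (1.24, limma adjusted p = 0.0137). None of 7 genes of pyruvate entry, 5 ATP synthase accessory genes or 5 cytosolic and peroxisomal enzyme forms passed. Before adjustment, at p under 0.05, these lists had 1 lower, 1 higher and 1 lower gene, and 22.4% of all probe sets were lower. The share of all probe sets higher at this cut is not given here. Among 12 regulators, MIG1, the glucose repressor (-0.78, limma adjusted p = 0.0299), and RTG1, of the retrograde pathway (-0.56, limma adjusted p = 0.0467), were lower. The RTG1 call was lost in 3 settings. HAP1 encodes a haem-responsive activator of CYC1, CYC7 and other respiratory genes, and S288c is known to carry a transposon insertion in it. Its probe set read 11.43 and 11.24 in S288c against 11.06 and 10.98 in Σ1278b (0.31 ± 0.11, limma adjusted p = 0.126).

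The FLO11 arrays show how these genes stood when FLO11 RNA was raised by a plasmid, without extra MSS11 or FLO8. None of the 51 passed the test by limma, against 3.8% of all probe sets higher and 2.55% lower. The 51 differences lay between -0.21 and 0.18, with a median of -0.01 that equalled the median of all probe sets to this precision. At an unadjusted p under 0.05 there were 4 positive genes, FUM1 (0.17), LSC2 (0.17), HAP2 (0.12) and CIT1 (0.11), and 2 negative ones, CIT3 (-0.21) and COX5A (-0.12), with the shares over all probe sets at 10.3% and 12.7%. By complex the medians were 0.09 for complex II, -0.03 for complex III, -0.04 for complex IV, -0.01 for ATP synthase, 0.02 for the citric acid cycle and 0.05 for the HAP subunits.

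CYT1 read 12.72, 12.81 and 12.68 with FLO11 overexpression against 12.76, 12.75 and 12.85 in wild type. COX5A read 13.68, 13.77 and 13.73 with FLO11 against 13.89, 13.84 and 13.81 in wild type. FUM1, fumarase, read 12.97, 12.96 and 12.88 with FLO11 against 12.71, 12.76 and 12.84 in wild type. The groups overlapped for CYT1 and did not for COX5A and FUM1, though neither difference passed (limma adjusted p = 0.189 and 0.110). Over the 51 genes, the FLO11 arrays were all below the wild-type arrays in 7 and all above in 6, against 17.1% and 12.4% of all probe sets. The share below was under that background and the share above was near it.

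**Figure D4:**
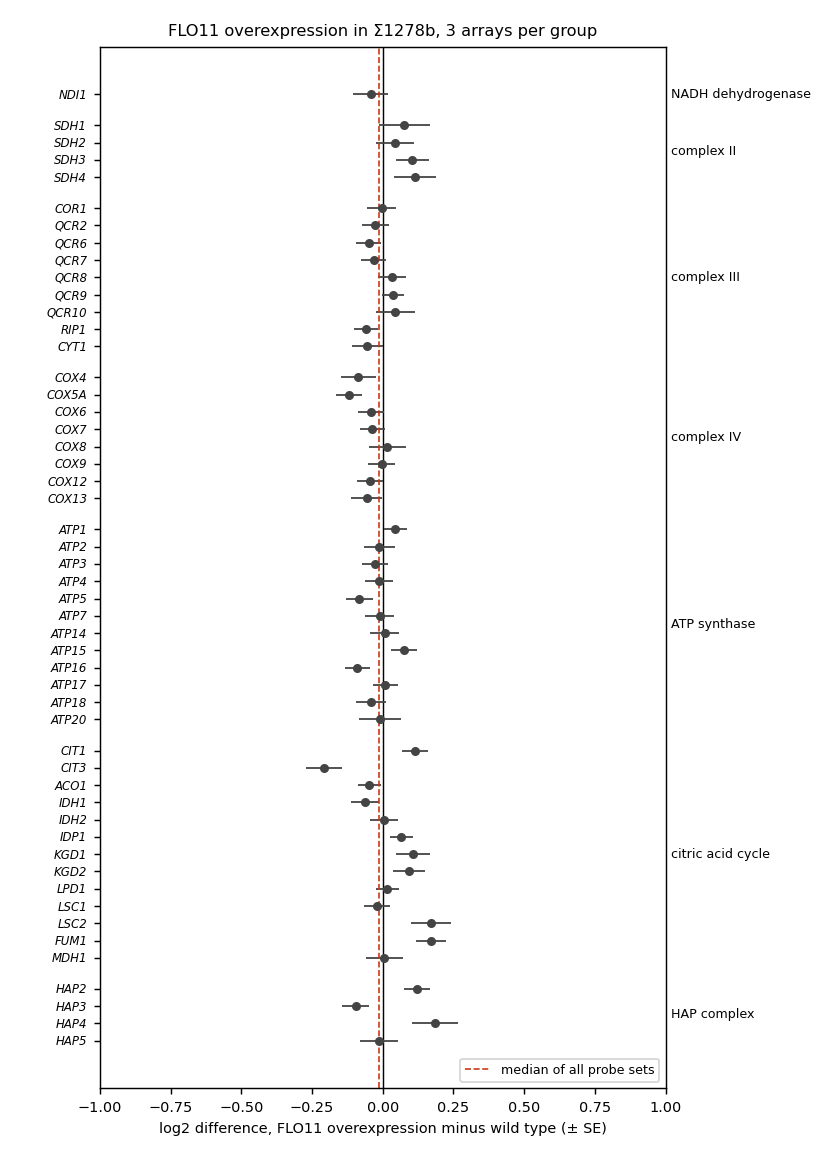
Log2 difference FLO11 overexpression minus wild type in Σ1278b (x axis, 3 arrays per group) for each of the 51 genes by complex, with the limma SE as error bars. All points lie between -0.21 and 0.18, and the dashed line at -0.01 is the median of all yeast probe sets.

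Glucose-repressed genes outside the mitochondrial complexes moved on the same arrays. Of 8 genes for gluconeogenesis, the glyoxylate cycle and ethanol use, 6 passed the test as higher with FLO11 overexpression and 0 as lower. The shares of all probe sets were 3.8% and 2.55%. The median over the 8 was 1.45. ADH2, which oxidises ethanol, read 10.98, 10.89 and 9.31 with FLO11 against 7.40, 7.20 and 7.32 in wild type (3.09 ± 0.41, limma adjusted p = 0.00854). MLS1 (1.69), ICL1 (1.48) and SFC1 (1.45), the genes of malate synthase, isocitrate lyase and a mitochondrial succinate-fumarate carrier, also rose. IDP2, the cytosolic NADP-dependent isocitrate dehydrogenase, rose by 0.81 (limma adjusted p = 0.00932) and GUT2, mitochondrial glycerol 3-phosphate dehydrogenase, by 0.40 (limma adjusted p = 0.0122), while the mitochondrial IDP1 differed by 0.07. STF2, named for stabilising the inhibited ATP synthase, rose by 0.54 (limma adjusted p = 0.0290). RTG3, of the retrograde pathway, rose by 0.20 (limma adjusted p = 0.0412). AAC3, the ADP/ATP carrier form of low oxygen, fell by 0.47 (limma adjusted p = 0.0262). COX5B differed by 0.43 (limma adjusted p = 0.0531). With 1 array left out, RTG3 lost its call each time (0.18 to 0.22), STF2 in all cases but FLO11 replicate 1 (0.47 to 0.56 where lost) and AAC3 in all but wild-type replicate 1 (-0.50 to -0.39 where lost). GUT2 lost it without wild-type replicate 2 (0.38) or FLO11 replicate 3 (0.39), and MLS1 without wild-type replicate 2 (1.68). None of the 7 genes of pyruvate entry and none of the 37 assembly factors passed. Before adjustment (p under 0.05), 1 of the pyruvate genes was higher and 7 of the assembly factors were lower. The shares of all probe sets at this cut were 10.3% higher and 12.7% lower.

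MSS11 overexpression was set against empty vector in both strains by the MSS11 term of the 4-array fit. None of the 51 passed by limma, and in all only 2 of the 5498 probe sets did (0.0364% higher, 0% lower). Before adjustment, at p under 0.05, 1 of the 51 was higher and 0 were lower, against 2.75% and 1.47% of all probe sets. The differences were small and mostly positive, with 46 of 51 above 0, against 46% of all probe sets, and a median of 0.11, against -0.01 over all probe sets. Taken by strain, the median of the 51 was 0.21 in S288c, against -0.02 over all probe sets. In Σ1278b it was 0.04, against 0.01, so the mean of the strains came mostly from S288c. Of the 51, 29 were higher with extra MSS11 in both strains, against 21.6% of all probe sets, and 2 were lower in both, against 22.9%. The 29 held 7 of 9 complex III genes, 7 of 8 complex IV genes and 9 of 12 ATP synthase genes, but 3 of 13 cycle genes. QCR2 read 12.22 in S288c with MSS11 against 11.82 in S288c wild type, and 12.88 in Σ1278b with MSS11 against 12.75 in Σ1278b wild type.

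HAP4 had the largest MSS11 difference of the 51. It read 10.39 with MSS11 against 9.03 in wild type in S288c, and 11.37 with MSS11 against 10.76 in wild type in Σ1278b. The mean difference of 0.98 ± 0.22 did not pass in the 4-array fit (limma adjusted p = 0.548), while the 12-array fit, which assumes that single arrays vary like the replicated groups, gave a limma adjusted p of 0.00191 and called no other of the 51, against 2.51% of all probe sets higher. HAP4 in S288c, at 1.36, was the only one of the 51 genes at least 2-fold higher with MSS11, against 1.24% of all probe sets, and none was 2-fold lower (0.437%). The median S288c difference was 0.33 in complex II, 0.25 in complex III, 0.20 in complex IV, 0.19 in ATP synthase and 0.15 in the citric acid cycle. In Σ1278b these medians were -0.001, 0.06, 0.07, 0.04 and -0.02. With the same assumption about spread, 10 genes were higher in S288c with MSS11 (HAP4, KGD2, MDH1, CIT1, QCR2, ATP3, ATP16, COX13, COX7 and RIP1, with differences of 0.30 to 1.36) and CIT3 was lower (-0.43), against 4.53% and 7.84% of all probe sets. On the same 2 arrays the a markers differed by -0.85 for STE6 to -1.61 for BAR1, and their part in the differences of the 51 genes was not tested. In Σ1278b the same fit called none of the 51.

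The effect of MSS11 differed between the strains for 1 gene by the interaction in the 12-array fit. CIT1, the main mitochondrial citrate synthase, read 13.45 with MSS11 against 12.97 in wild type in S288c, and 12.84 with MSS11 against 13.15 in wild type in Σ1278b. The interaction was 0.78 ± 0.11 (limma adjusted p = 0.0161), and 1.51% of all probe sets had a positive and 3.26% a negative interaction, so 1 gene of 51 was near the background. The Σ1278b wild type at 13.15 was also above the 3 wild-type arrays of the first set, which read 12.83, 12.74 and 12.80, close to Σ1278b with MSS11. The next members were CIT3 (-0.64, limma adjusted p = 0.0652), KGD2 (0.57, limma adjusted p = 0.0659) and HAP4 (0.75, limma adjusted p = 0.0784).

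MSS11 overexpression, FLO8 overexpression and MSS11 deletion in Σ1278b were each read on 1 array against the same wild-type array, so the 3 comparisons share that array and carry no test. None of the 51 genes was 2-fold different in any of them. The shares of all probe sets past 2-fold were 0.946% higher and 0.273% lower with MSS11, 0.473% and 0.346% with FLO8, and 0.4% and 0.236% in mss11Δ. HAP4 read 11.37 with MSS11, 11.26 with FLO8 and 10.52 in mss11Δ, against 10.76 in wild type. It was therefore brighter in both overexpression arrays and dimmer in the deletion array than on the wild-type array. On the first-set arrays it read 10.89, 10.88 and 11.02 with FLO11 against 10.92, 10.64 and 10.67 in wild type.

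In mss11Δ all 9 complex III, 8 complex IV and 12 ATP synthase genes were at or slightly below the wild-type array, with medians of -0.07, -0.14 and -0.04, against 49.9% of all probe sets below it and a median of 0.00044, while the cycle genes had a median of 0.10. With FLO8, 12 of 13 cycle genes were below the wild-type array (median -0.12), against 48.5% of all probe sets, and complexes III and IV had medians of 0.02 and 0.05. CIT1 read 12.84 with MSS11, 12.67 with FLO8 and 13.32 in mss11Δ, against 13.15 in wild type. CIT3 read 7.33 in mss11Δ against 6.77 in wild type, the largest of the 51 differences in mss11Δ at 0.56. The second Σ1278b wild-type array lay above all 3 first-set wild-type arrays for 19 of the 51 genes and below them for 15. The shares of all probe sets were 33.4% and 42.2%. None of the 51 was 2-fold different from any of the 3. Of all probe sets, 0.709%, 0.691% and 0.527% were 2-fold higher against replicates 1, 2 and 3, and 0.891% to 1% lower. These wild types differed in marker as well as in set, so this is not a spread within 1 genotype. URA3 read 14.73 in the second-set wild type and 8.57, 8.71 and 8.64 in the first-set wild types.

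**Figure D5:**
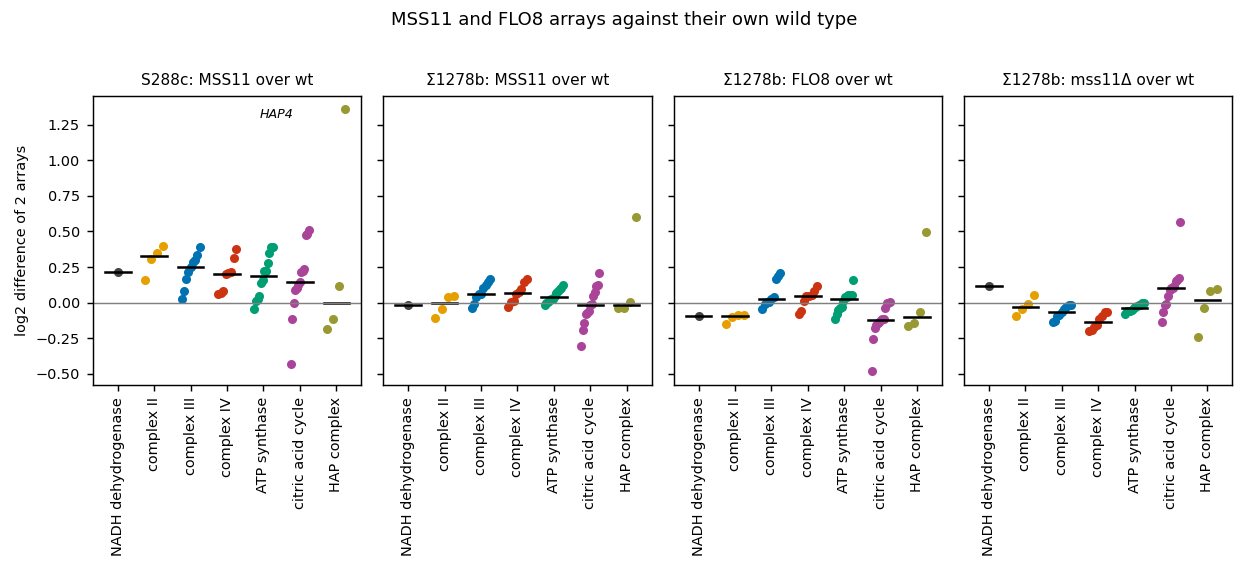
Log2 difference of 2 arrays (y axis) for the 51 genes by complex, with black lines at the medians, for MSS11 in S288c, MSS11 in Σ1278b, FLO8 in Σ1278b and mss11Δ in Σ1278b, each over the wild type of its strain. HAP4 in S288c, at 1.36, is the only point past 1, and the 3 Σ1278b panels share 1 wild-type array.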

How the data were processed

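RNA from 12 Saccharomyces cerevisiae cultures was measured on Affymetrix Yeast Genome 2.0 arrays. The values the authors deposited are linear RMA intensities, which they background corrected, quantile normalized across arrays and summarised to 1 number per probe set, without giving an RMA version in the sources used here. Because the methods speak of log2 values and the design had assumed them, intensities were converted to log2. Quantile normalization sets the arrays to 1 distribution, so a change shared by most genes cannot be seen, and probe mismatches with the Σ1278b sequence were not assessed.

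Of 10928 probe sets, 5498 were annotated to 1 S. cerevisiae gene, and 1747 fission yeast probe sets gave the background. The number of arrays limits the precision. Tests used R 4.3.3 with limma 3.58.1, were two-sided, and called a gene at a Benjamini-Hochberg adjusted p under 0.05 over the 5498 probe sets. FLO11 overexpression was compared with wild type over 3 arrays each. Strain and MSS11 terms were fitted to 4 arrays, and a fit to all 12 arrays with 8 groups gave the interaction. Groups of 1 array were compared by a 2-fold threshold with no test. The labels call the arrays biological replicates. Same-numbered FLO11 and wild-type arrays did not deviate together (r = 0.03, -0.12 and -0.27), so the numbers were not used as pairs.

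Every one of the 51 genes could be named. Of the other lists, up to 4 genes by size of difference were named, with FLO11, MSS11, FLO8, LYS2 and HAP1. The genes, lists and tests were chosen with earlier results of these data known. The fits were tested on simulated data. The simulation took its spread from the first set and had no strain by MSS11 interaction. It therefore cannot show how the 4-array fit behaves on the single arrays of the second set. Normalization, centring, filters, variance model, arrays in the fit, the replicate block, and single arrays left out were tried as alternatives.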

Additional observations from a re-analysis of the deposited data

Results flagged for a closer look

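CIT1 was picked out because the effect of MSS11 overexpression differed between the strains in a test of the difference itself. It was 0.48 in S288c and -0.31 in Σ1278b, a difference of 0.78 ± 0.11 (SE, log2, limma adjusted p = 0.0161). Each effect is the difference of 2 arrays, and the SE was taken from the replicated first set, so it does not cover differences between sets. The Σ1278b effect rests on 1 wild-type array at 13.15, above the 3 first-set wild types at 12.83, 12.74 and 12.80, while Σ1278b with MSS11 read 12.84. Of all probe sets, 1.51% had a positive interaction past the threshold, against 1 gene of the 51. The value was 0.82 after each array was centred on its median (limma adjusted p = 0.0158), a setting chosen after seeing the data.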

How the results depend on the processing

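All 51 genes were above background on all 12 arrays. With 1 array per group in the second set, the replicate error of those values is not known. In the 12-array fit 9 of the 51 genes were higher and 29 lower in S288c, in place of 2 and 14, against 21.3% and 34% of all probe sets. Set against the 4 Σ1278b arrays of the second set the counts were 5 and 24 (14.7% and 26% of all probe sets), and against all 10 Σ1278b arrays 7 and 28 (17% and 29%). With trend and robust variance 4 were higher and 21 lower (8.13% and 11.7% of all probe sets). Leaving out 1 of the 4 arrays, with spread from the replicated groups, gave 6 to 7 higher and 22 to 30 lower (14.1% to 18.9% and 24.1% to 26.4% of all probe sets). In each of these settings the share of the 51 that was lower was above that of all probe sets, and the share that was higher was not. MSS11 overexpression had 1 higher and 0 lower in the 12-array fit, against 2.51% and 1.89% of all probe sets. Leaving out either Σ1278b array left the S288c pair alone, whose differences are given above. The strain by MSS11 interaction called 5 genes with trend and robust variance, a setting chosen after seeing the data. The share of all probe sets for that interaction is not given here. FLO11 overexpression had 0 to 1 lower, the 1 being CIT3 (-0.27, limma adjusted p = 0.0404) without FLO11 replicate 1. With the replicate block it had 0 higher and 0 lower of the 51, and over all probe sets 148 higher and 60 lower in place of 209 and 140.

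At a log2 threshold of 0.58, 1 gene was higher with MSS11 in Σ1278b. Between wild types 3 were higher and 17 lower, and with extra MSS11 in both strains 5 were higher and 14 lower. The shares of all probe sets at this threshold are not given here, so these counts cannot be set against a background. Against the wild types of both sets the FLO11 difference was 0.034 for NDI1 and 0.0095 for the median of the HAP genes. The signs of some strain differences that passed no test turned. MDH1 was 0.0050 after quantile normalization and 0.029 after median centring. With each of the 4 arrays left out in turn, MDH1 lay between -0.24 and 0.16, ATP15 between -0.21 and 0.037, ATP16 between -0.38 and 0.011, KGD1 between -0.26 and 0.041, KGD2 between -0.39 and 0.18, HAP2 between -0.057 and 0.089, and CIT1 between -0.18 and 0.61. ADH2, which was 0.95 higher in S288c and past the threshold, was -0.039 against all 10 Σ1278b arrays, 3 of which carried the FLO11 plasmid, and the cause was not tested.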

Other observations

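Of the 8 glucose-repressed genes, 1 passed the test as higher in S288c, ADH2, against 6.29% of all probe sets. It read 8.27 and 8.21 in S288c against 7.46 and 7.11 in Σ1278b. The median over the list was 0.19. Before adjustment, at p under 0.05, 3 of the 8 were higher, ADH2, ICL1 (0.55) and ACS1 (0.31). The share of all probe sets higher at this cut is not given here, so these 3 cannot be set against a background. The cytosolic malate dehydrogenase MDH2 read 11.77 with MSS11 against 9.93 in wild type in S288c, and 12.36 with MSS11 against 11.42 in wild type in Σ1278b. Its mean difference of 1.39 did not pass the test (limma adjusted p = 0.399). The 3 first-set Σ1278b wild types read 12.49, 12.54 and 12.71 for MDH2, all above Σ1278b with MSS11. The Σ1278b difference therefore rests on 1 wild-type array.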
